A study of Canis lupus familiaris with 6 samples.

Results

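The integrin subunits and laminin chains of canine keratinocytes were compared between cells treated with direct cold atmospheric microwave plasma (dCAMP) and cells given gas alone. The members were taken by gene symbol, as every integrin alpha (ITGA), integrin beta (ITGB) and laminin alpha, beta or gamma (LAMA, LAMB, LAMC) gene of the gene table. This gave 38 of 35993 genes, 26 integrins and 12 laminins, and none was chosen by its measured values. CPEK is a line of canine progenitor epidermal keratinocytes, wild type in both groups, so all 6 libraries share 1 cell line. The cells were near confluence and grew in DMEM with 10% FBS, penicillin and streptomycin. The CAMP group (3 libraries) had 30 s of plasma and the gas control (3 libraries) had gas in its place. The medium was exchanged 15 min later, and RNA was collected after another 24 h. The study's methods speak of independent experiments in general, but neither they nor the sample labels say which cultures the 3 libraries of a group came from, so the p-values measure the spread between these libraries, which may be technical.

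Integrins are receptors made of 1 alpha and 1 beta chain that hold a cell to the matrix outside it, and the pair decides which matrix protein is bound. Laminins are trimers of 1 alpha, 1 beta and 1 gamma chain and form the sheet of the basement membrane. In the basal layer of skin, the integrin of ITGA6 and ITGB4 binds laminin-332, which contains LAMA3 and LAMB3, and is linked inside the cell to keratin filaments in the hemidesmosome, a rivet-like anchor. Integrins that carry ITGB1 lie outside hemidesmosomes and connect to actin, and those that carry ITGAV or ITGA5 bind an RGD motif in fibronectin, vitronectin or latent TGF-beta. When keratinocytes close a wound, they are known to loosen hemidesmosomes, lay down laminin-332 and use integrins of the ITGB1 and ITGAV families.

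The libraries held 43084921 to 54082634 gene counts. On the first principal component of all genes tested, which took 71.2% of the variance, the CAMP libraries lay between 28.6 and 33.6, while gas 1 lay at -94.1, gas 2 at -23 and gas 3 at 21.7. The gas libraries thus stood far apart from each other, with gas 3 beside the CAMP libraries, and no label gives a reason for it. Most differences below are therefore given without gas 3 as well, and the plot of fold changes shows this for 25 of the genes tested. Gas 3 was nearest to the CAMP mean in 69.3% of the genes with a value in every library. Leaving it out thus tends to enlarge differences, and the adjusted p-values without it are no separate support. Many differences are also given without gas 1, the gas library farthest from CAMP on this component. All 10 keratinocyte markers had reads, with a summed level of 20300 to 25700 FPKM (fragments scaled to transcript length and to library size) in gas and 19100 to 20300 in CAMP. The summed fibroblast, endothelial, leukocyte and melanocyte markers stayed between 0.663 and 3.13 FPKM in every library, and PDGFRB, LUM, DCN, PECAM1, PTPRC, CD3E, LCP1, CSF1R, TYR and DCT were at 0 in all of them. The endothelial sum was 2.01 to 2.39 FPKM in gas and 2.53 to 3.13 in CAMP, and the melanocyte sum 1.09 to 1.72 and 1.87 to 2.3. Their part in the results was not tested, and in bulk samples fewer cells of a type and less RNA per cell cannot be told apart.

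Of the 38 genes, 26 had enough reads to be tested, 19 integrins and 7 laminins. The 12 others had 0 to 12 counts in a library. ITGA4, ITGAD, ITGAL, ITGB2 and LAMA1 were at 0 in all 6, and ITGA8, ITGA11, ITGAX, LAMA2, LAMA4, LAMB4 and LAMC3 had at most those few counts in some. A count of 0 allows up to 3 counts, for counting error only. Of the leukocyte integrin chains, ITGB2, ITGAD and ITGAL were thus among the genes at 0, while ITGAE, ITGAM and ITGB7 were tested.

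The plot of levels by library shows the order of 25 of the tested genes on a per-length scale. ITGB4 was the highest, at 578 ± 84.0 FPKM in gas and 500 ± 12.8 in CAMP (mean ± SD, n = 3 in each). In gas, ITGA3 followed at 158 ± 21.9, with ITGA6 at 119 ± 16.7 and ITGB1 at 118 ± 56.2. The lowest gas library of ITGA3 (139 FPKM) lay just above the highest of ITGA6 (138 FPKM), and the gas libraries of ITGA6 and ITGB1 overlapped. In CAMP the order was different, with ITGB1 at 184 ± 5.01, ITGA6 at 152 ± 7.75 and ITGA3 at 124 ± 7.31 FPKM, and the CAMP libraries of these neighbours did not overlap. At the other end, ITGA1, ITGA2B, ITGA7, ITGA9, ITGA10, ITGB3 and ITGAM stayed under 1 FPKM in every library.

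**Figure D1:**
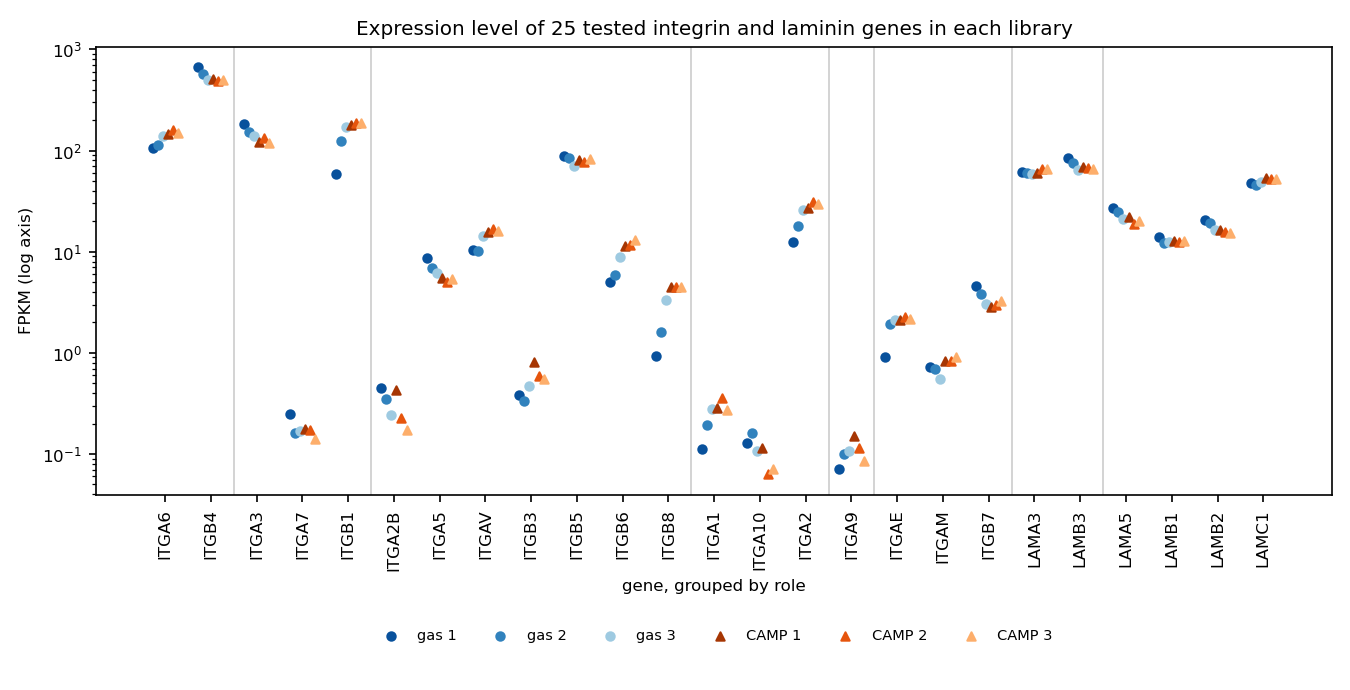
Level in FPKM (log axis) of 25 of the genes tested, with 1 point per library (circles gas, triangles CAMP), grouped by role between the vertical lines. ITGB4 lies at the top at 486 to 665 FPKM, and for ITGB8 and ITGB6 all 3 triangles lie above all 3 circles.

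Over the 26 genes, no member reached an adjusted p under 0.05 by edgeR's quasi-likelihood test, and neither did any of the 14708 genes tested (0.0% of them). At an unadjusted p under 0.05, 8 members passed, against 20.7% of all genes tested. ITGA6, ITGAM, ITGAV, ITGB3, ITGB6 and ITGB8 passed as higher in CAMP (background 6.81% of all genes tested), and ITGA3 and ITGA5 as lower (background 13.9%). All 8 were integrins in this fit. With a trend on gene length removed from each library, the laminins LAMA5 and LAMB2 also passed, as lower. Only ITGB8 also had a 2-fold difference, which 1.09% of all genes tested had. In 10 members every CAMP library lay above every gas library (background 19.0%), in 3 every CAMP library lay below (background 20.9%), and in 13 the groups overlapped. The median log2 fold change of the 26 was 0.05, and 0.027 over all genes tested. It was 0.35 over the 19 integrins, 11 of them above 0, and -0.046 over the 7 laminins, 2 of them above 0. The integrin median was 0.14 without gas 1 and 0.17 with voom, and over the other fits that left out a library it was 0.30 to 0.38. The laminin median was -0.015 without gas 1, -0.10 without gas 2, -0.11 without gas 3 and -0.11 without CAMP 2.

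These counts moved with the choice of libraries and with the test. Without gas 3, 14 members passed at an adjusted p under 0.05, 7 higher and 7 lower, and 33.1% of all genes tested did. With limma's voom and sample quality weights, 19 passed, 11 higher and 8 lower, against 60.8% of all genes. With DESeq2, the tool of the study, 0 members passed at an adjusted p under 0.05, against 2.59% of the 11627 genes that it gave an adjusted p. It gave none to 4 of the members tested here (ITGA10, ITGA2B, ITGA7 and ITGA9). At an unadjusted p under 0.05 it called 8 members and 17.3% of all genes with a count. The count of 8 by edgeR was 10 without gas 1 (20.6% of all genes tested), 3 without gas 2 (8.25%) and 17 without gas 3 (49.2%). It was 5 without CAMP 1 (8.23%), 3 without CAMP 2 (9.61%) and 3 without CAMP 3 (6.86%). The shares over all genes were thus also lowest, under 10%, in the fits without gas 2 or 1 CAMP library and highest without gas 3. Gas 1 was the gas library farthest from the CAMP mean in 20 of the 26 members (74.6% of all genes), and gas 3 was the nearest in 23 (69.3%).

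Of the chains of the hemidesmosome receptor, ITGA6 passed at an unadjusted p under 0.05 as higher and ITGB4 did not pass. ITGA6, the alpha chain that binds laminin-332, was read from chromosome 36:16777363-16858725 of CanFam3.1. Its normalized expression was 874, 968 and 1190 CPM (read counts scaled to the size of the library) in gas 1, 2 and 3, and 1254, 1361 and 1260 CPM in CAMP 1, 2 and 3. Every CAMP library lay above every gas library. This gave a log2 fold change of 0.35 ± 0.12 (SE) with an adjusted p of 0.224 by edgeR, and 0.44 without gas 3, with an adjusted p of 0.0213. Without gas 1 the log2 fold change was 0.24. With a trend on gene length removed from each library it was 0.11.

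ITGB4, the beta chain whose long inner tail is linked to plectin and keratin, lies at chromosome 9:4825148-4855266. It had 4370, 3853 and 3393 CPM in the gas libraries and 3460, 3250 and 3377 CPM in the CAMP libraries. Gas 1 was the highest, and gas 3 lay within the CAMP range, so the groups overlapped. ITGB4 had a log2 fold change of -0.20 ± 0.10 (adjusted p = 0.277 by edgeR), -0.34 without gas 3 (adjusted p = 0.0288) and -0.13 without gas 1. The ratio of ITGA6 to ITGB4 in FPKM was 0.16, 0.199 and 0.278 in gas and 0.286, 0.331 and 0.296 in CAMP, so the 2 groups did not overlap, although gas 3 came close. A two-sided exact permutation test of 3 libraries against 3 cannot go below a p of 0.1, and ratios and shares are therefore given as values with no test.

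The other laminin receptors in these cells were the chains of the integrin of ITGA3 and ITGB1, which binds laminin-332 and laminin-511. ITGA3, at chromosome 9:26065792-26095649, had 927, 796 and 736 CPM in gas and 645, 688 and 616 CPM in CAMP. All CAMP libraries lay below all gas libraries. It was lower by 0.34 on the log2 scale (log2 fold change -0.34 ± 0.10, unadjusted p = 0.0176 by edgeR, adjusted p = 0.221), and the value without gas 3 was -0.46 (adjusted p = 0.0246). The value without gas 1 was -0.26.

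ITGB1, the partner of most alpha chains here, lies at chromosome 2:3728472-3757696. It had 236, 516 and 714 CPM in gas and 742, 770 and 771 CPM in CAMP. The CAMP libraries lay close together and above all gas libraries, and the gas libraries spread over a range wider than the difference between the means. Its log2 fold change of 0.64 ± 0.36 had an adjusted p of 0.305 by edgeR. It was 0.98 without gas 3 (adjusted p = 0.0602) and 0.29 without gas 1, so a single gas library moved it by more than 1.5 times in either direction. ITGA7, the alpha chain of a laminin receptor known from muscle, was near the detection limit, at 0.708 to 1.19 CPM over the 6 libraries, with overlapping groups and a log2 fold change of -0.19 ± 0.23.

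**Figure D2:**
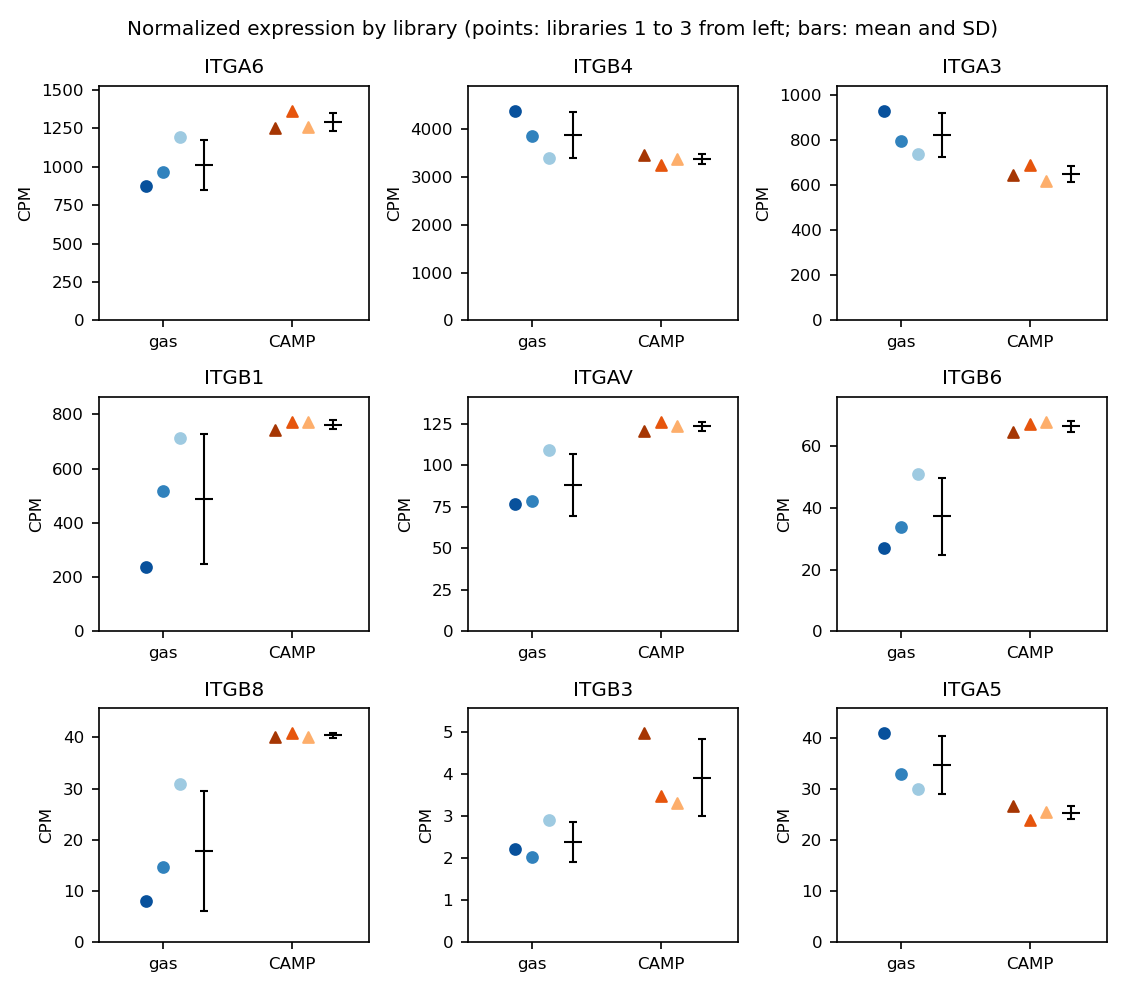
Normalized expression (CPM) of 9 integrin chains, with 1 point per library (circles gas, triangles CAMP, libraries 1 to 3 from left to right) and the group mean with SD beside the points. The gas points are wide apart for ITGB1 (236 to 714 CPM) and ITGB8 (8.06 to 30.8 CPM), and the CAMP points lie close together.

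Among the receptors for fibronectin and vitronectin, 7 of 8 genes were tested, and 5 of them passed at an unadjusted p under 0.05, 4 as higher and 1 as lower, beside the 6.81% and 13.9% of all genes tested. Without gas 3, the count at an adjusted p under 0.05 was also 4 higher and 1 lower, and over all genes tested 15.0% passed as higher and 18.1% as lower. ITGB8, the beta chain that with ITGAV binds latent TGF-beta, had the largest log2 fold change of the 26 members in the fit of all libraries. It had 8.06, 14.6 and 30.8 CPM in gas and 40.1, 40.8 and 40.2 CPM in CAMP. All CAMP libraries lay above gas 3, the highest of the gas libraries. ITGB8 had a log2 fold change of 1.17 ± 0.45 (adjusted p = 0.235 by edgeR), 1.78 without gas 3 (adjusted p = 0.0203) and 0.81 without gas 1. With the length trend removed it was 0.99.

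ITGB6, the epithelial partner of ITGAV that is known to appear in healing epidermis and to activate TGF-beta, had 27.2, 33.7 and 51.2 CPM in gas and 64.6, 67.3 and 67.9 CPM in CAMP. Again no gas library reached the CAMP range. ITGB6 had a log2 fold change of 0.83 ± 0.23 (adjusted p = 0.221 by edgeR), 1.08 without gas 3 (adjusted p = 0.0203) and 0.63 without gas 1. ITGAV, the alpha chain shared by ITGB3, ITGB5, ITGB6 and ITGB8, had 76.6, 78.6 and 110 CPM in gas and 121, 126 and 124 CPM in CAMP. Its groups did not overlap either, and the log2 fold change was 0.48 ± 0.15 (adjusted p = 0.221 by edgeR), with 0.62 without gas 3 (adjusted p = 0.0203). For ITGAV it was 0.38 without gas 1.

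ITGB3, a vitronectin receptor chain known best from platelets and bone, was low. It had 2.23, 2.03 and 2.92 CPM in gas and 4.99, 3.48 and 3.32 CPM in CAMP, from 103 to 231 counts. CAMP 1 was the highest library, and all CAMP libraries exceeded all gas libraries. The log2 fold change of ITGB3 was 0.70 ± 0.23 (adjusted p = 0.221 by edgeR), 0.83 without gas 3 (adjusted p = 0.043) and 0.64 without gas 1.

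ITGA5, the alpha chain of the classical fibronectin receptor, stood on the other side. It had 40.9, 33.0 and 30.0 CPM in gas and 26.7, 24.0 and 25.4 CPM in CAMP, and all CAMP libraries lay below all gas libraries. For ITGA5 the log2 fold change was -0.45 ± 0.14 (adjusted p = 0.221 by edgeR), -0.59 without gas 3 (adjusted p = 0.027) and -0.33 without gas 1. The ratio of ITGAV to ITGA5 in FPKM was 1.17, 1.49 and 2.29 in gas and 2.84, 3.29 and 3.05 in CAMP.

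ITGB5, a vitronectin receptor chain, was the most abundant gene of this group, at 81.5 ± 9.46 FPKM in gas and 80.2 ± 2.54 in CAMP. ITGB1, which was grouped with the laminin receptors, had higher means (118 FPKM in gas and 184 in CAMP). ITGB5 showed overlapping groups and a log2 fold change of -0.017 ± 0.097 (adjusted p = 0.914 by edgeR). ITGB5 changed sign when gas 1 was left out, at 0.016. The ratio of ITGB6 to ITGB5 in FPKM was 0.0558, 0.0694 and 0.126 in gas and 0.14, 0.152 and 0.161 in CAMP. ITGA2B, the platelet fibrinogen receptor chain, had 34 to 87 counts in a library, overlapping groups and a log2 fold change of -0.29 ± 0.38.

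The collagen receptors were carried by ITGA2, which pairs with ITGB1 and is the main collagen receptor of keratinocytes. ITGA2 had 57.2, 84.9 and 122 CPM in gas and 127, 144 and 138 CPM in CAMP. The lowest CAMP library lay just above gas 3, the highest gas library. For ITGA2 the log2 fold change was 0.63 ± 0.26 (adjusted p = 0.243 by edgeR), 0.89 without gas 3 (adjusted p = 0.0233) and 0.38 without gas 1. ITGA1, another collagen receptor chain, is 18.9 kb from ITGA2 on chromosome 4 and had 1.27 to 4.06 CPM, with overlapping groups and a log2 fold change of 0.64 ± 0.33 (adjusted p = 0.279 by edgeR). For ITGA1 it was 0.94 without gas 3 (adjusted p = 0.0458) and 0.35 without gas 1. Its locus holds PELO, a gene with far more reads, and the sources used here do not say how reads on overlapping genes were counted, so its value is uncertain. ITGA10, at 0.443 to 1.1 CPM, had a log2 fold change of -0.62 ± 0.29 (adjusted p = 0.259 by edgeR) with overlapping groups.

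The remaining integrins were scarce in both groups. ITGA9, a receptor chain for tenascin, had 28 to 61 counts in a library, overlapping groups and a log2 fold change of 0.32 ± 0.28. Its locus overlaps CTDSPL, a gene with far more reads, so the value of ITGA9 is uncertain as well. ITGAM, known as a chain of the complement receptor of myeloid cells, had 3.67, 3.59 and 2.85 CPM in gas and 4.38, 4.25 and 4.6 CPM in CAMP, with all CAMP libraries above all gas libraries. The log2 fold change of ITGAM was 0.39 ± 0.14 (adjusted p = 0.23 by edgeR). Here gas 3 was the gas library farthest from CAMP, and the value without it was 0.23 (adjusted p = 0.184). Its partner chain ITGB2 was at 0 in every library, as were the leukocyte markers PTPRC and LCP1.

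ITGAE, the alpha chain of the E-cadherin receptor of T cells, had 4.17 CPM in gas 1 and 9.12 to 10.6 CPM in the other libraries, so the groups overlapped, and its log2 fold change was 0.39 ± 0.32 (adjusted p = 0.421 by edgeR), with 0.07 when gas 1 was left out. Its locus overlaps HASPIN and P2RX5, which leaves the value uncertain. ITGB7, which pairs with ITGAE, had 10.4, 8.91 and 7.05 CPM in gas and 6.54, 6.88 and 7.5 CPM in CAMP, with overlapping groups and a log2 fold change of -0.33 ± 0.17 (adjusted p = 0.277 by edgeR). Without gas 3 it was -0.51 (adjusted p = 0.0366), and without gas 1 it was -0.21.

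Chains of laminin-332, the ligand of both keratinocyte laminin receptors, were also compared. LAMA3, at chromosome 7:64405719-64654910, had 504, 486 and 512 CPM in gas and 549, 529 and 543 CPM in CAMP. The CAMP libraries lay above the gas libraries, and the log2 fold change was 0.11 ± 0.066 (adjusted p = 0.317 by edgeR). On the deposited FPKM scale the groups of LAMA3 overlapped, at 58.7 to 61.8 in gas and 60.7 to 65.8 in CAMP, and with the length trend removed its log2 fold change was -0.15.

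LAMB3, at chromosome 7:8272326-8313322, had 514, 470 and 404 CPM in gas and 430, 423 and 413 CPM in CAMP. Gas 3 was the lowest of all libraries, so the groups overlapped, and the log2 fold change of -0.13 ± 0.10 had an adjusted p of 0.399 by edgeR. Without gas 3 it was -0.27 (adjusted p = 0.0391), and without gas 1 it was -0.071.

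Of the chains of other laminins, LAMC1, LAMA5, LAMB2 and LAMB1 were expressed. LAMC1, the gamma chain common to laminin-511 and most other laminins, had 389, 386 and 420 CPM in gas and 448, 441 and 440 CPM in CAMP, with all CAMP libraries above all gas libraries. The log2 fold change of LAMC1 was 0.15 ± 0.070 (adjusted p = 0.257 by edgeR), 0.15 without gas 3 (adjusted p = 0.1), and -0.10 with the length trend removed.

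LAMA5, the alpha chain of laminin-511, had 196, 182 and 156 CPM in gas and 163, 138 and 147 CPM in CAMP, with overlapping groups and a log2 fold change of -0.25 ± 0.11 (adjusted p = 0.257 by edgeR). LAMB2, the beta chain of laminin-521, had 169, 157 and 131.3 CPM in gas and 131.0, 125 and 130.0 CPM in CAMP. All CAMP libraries of LAMB2 lay below all gas libraries in CPM, by a narrow margin to gas 3, and the log2 fold change was -0.25 ± 0.11 (adjusted p = 0.255 by edgeR). On the deposited FPKM scale the groups of LAMB2 overlapped, with gas 3 at 16.25 and CAMP 1 at 16.30. Without gas 3 the log2 fold changes were -0.38 for LAMA5 (adjusted p = 0.0359) and -0.39 for LAMB2 (adjusted p = 0.0231). Without gas 1 they were -0.20 for LAMA5 and -0.19 for LAMB2. LAMB1, the beta chain of laminin-511, had 74.9 to 82.0 CPM in gas and 75.7 to 78.6 CPM in CAMP and a log2 fold change of -0.009 ± 0.083 (adjusted p = 0.944 by edgeR).

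**Figure D3:**
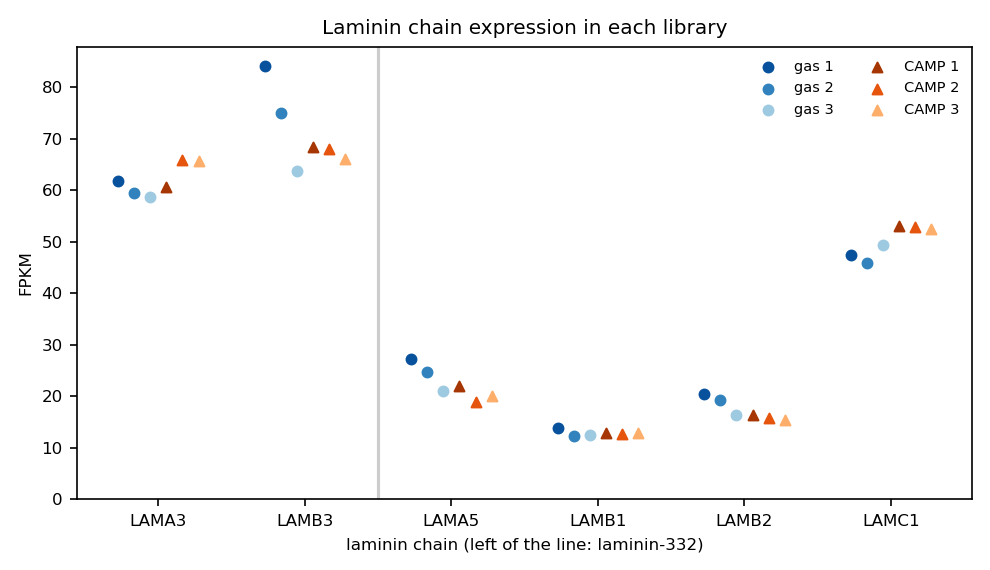
Level in FPKM of 6 laminin chains, with 1 point per library (circles gas, triangles CAMP), with chains of laminin-332 left of the line. LAMB3 has the highest point, gas 1 at 84.2 FPKM, and the LAMC1 triangles (52.5 to 53.0) lie above its circles (45.8 to 49.3).

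The totals of the integrin alpha and beta chains overlapped between the groups, while the shares of ITGA3, ITGA6 and ITGB4 did not and those of ITGB1 met. The summed FPKM of all alpha chains was 304 to 327 in gas and 321 to 350 in CAMP, and that of all beta chains 755 to 824 in gas and 770 to 793 in CAMP. ITGA3 made up 56.4%, 49.9% and 42.5% of the alpha chain FPKM in gas and 38.2%, 37.9% and 36.8% in CAMP. ITGA6 made up 33.0%, 37.4% and 42.3% in gas and 45.5%, 46.0% and 46.2% in CAMP. The ratio of ITGA3 to ITGA6 was thus 1.71, 1.34 and 1.01 in gas and 0.84, 0.824 and 0.795 in CAMP, and ITGA3 exceeded ITGA6 in every gas library and in no CAMP library.

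Of the beta chain FPKM, ITGB4 took 80.8%, 72.1% and 66.0% in gas and 64.7%, 63.1% and 63.4% in CAMP. ITGB1 took 7.1%, 15.7% and 22.56% in gas, and 22.56%, 24.3% and 23.5% in CAMP. For both chains gas 3 lay at or close to the CAMP values, and gas 1 lay farthest from them. ITGB5 took 9.39% to 10.8% in gas and 10.1% to 10.4% in CAMP. In the laminins, LAMB3 took 69.0% to 71.1% of the beta chain FPKM in gas and 70.1% to 70.6% in CAMP.

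**Figure D4:**
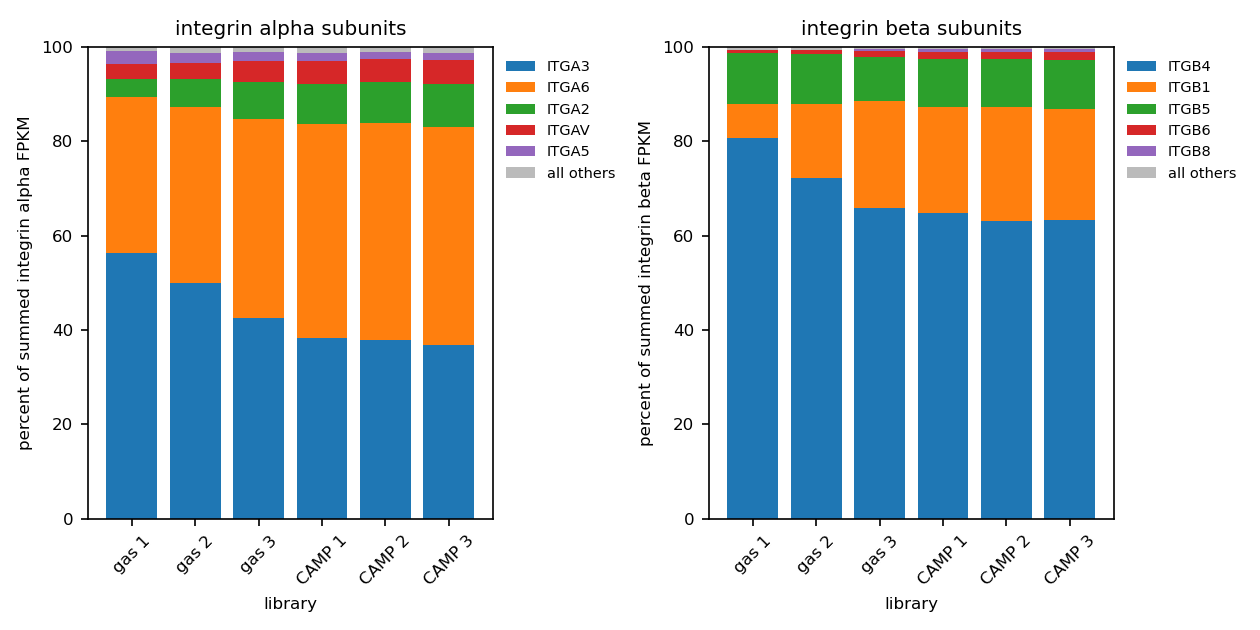
Share (percent) of each chain in the summed FPKM of all integrin alpha chains (left) and beta chains (right), with 1 stacked bar per library. The ITGA3 part spans 42.5% to 56.4% with gas and 36.8% to 38.2% with CAMP, and the ITGB4 part is 80.8% in gas 1 and 63.1% to 64.7% in the CAMP libraries.

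The transcript table gave some of these genes as several RefSeq transcripts. ITGA6 had 2, and the variant of 5804 bases held 5.44%, 2.94% and 2.05% of the counts of ITGA6 in gas and 1.49%, 1.38% and 2.25% in CAMP, so the groups overlapped. LAMA3 had 2 as well, and the long variant of 10416 bases held 33.3%, 27.6% and 39.5% of the counts in gas and 49.2%, 25.4% and 30.9% in CAMP. CAMP 1 was the highest and CAMP 2 the lowest of the 6, so the LAMA3 variants showed no separation of the groups. For ITGB6, the variant of 4954 bases ranged from 0.0% to 54.9% of the counts in gas and from 0.0% to 50.1% in CAMP, so the split between its near-identical transcripts was not stable from library to library.

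The proteins that work with these receptors were read from 3 lists of 32 genes that are no members, of which 26 were tested. At an unadjusted p under 0.05, 3 were higher and 6 lower (6.81% and 13.9% of all genes tested), and 0 passed at an adjusted p under 0.05. Their median log2 fold change was -0.056. Without gas 3, 5 passed as higher and 8 as lower at an adjusted p under 0.05 (15.0% and 18.1% of all genes tested). Of the 7 hemidesmosome and anchoring partners, 1 passed at an unadjusted p under 0.05. This was PLEC, plectin, which ties ITGB4 to keratin, with a log2 fold change of -0.35 ± 0.11 (adjusted p = 0.221 by edgeR), and its CAMP libraries lay below its gas libraries. DST, dystonin, a plakin whose epithelial form lies in hemidesmosomes, missed the threshold with a log2 fold change of 0.84 ± 0.35 (unadjusted p = 0.0513, adjusted p = 0.243 by edgeR), with all CAMP libraries above all gas libraries. Without gas 3 it had an adjusted p of 0.0274, and 3 of the 7 partners passed as higher and 2 as lower.

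Of 12 basement membrane and matrix ligands, 7 were tested, 1 was higher and 3 lower at an unadjusted p under 0.05. THBS1, thrombospondin 1, which can bind integrins and activate latent TGF-beta, had 489, 519 and 531 CPM in gas and 759, 679 and 770 CPM in CAMP. The gas libraries of THBS1 lay close together, and its log2 fold change was 0.52 ± 0.081 (unadjusted p = 0.000541 and adjusted p = 0.221 by edgeR). COL4A2, a chain of basement membrane collagen, and FN1, fibronectin, the ligand of ITGA5, had log2 fold changes of -0.29 ± 0.10 and -0.25 ± 0.096. The vitronectin gene VTN was at 0 in every library. Of 13 integrin activators and adaptors, 12 were tested, 2 were higher and 2 lower at an unadjusted p under 0.05. FERMT2 and LIMS1, which help to activate integrins or link them to actin, had log2 fold changes of 0.996 ± 0.39 and 0.64 ± 0.26. FERMT2 was low, with 29 counts in gas 1 and 95 to 140 in the other libraries. Its log2 fold change was 0.63 to 1.22 over the fits that left out 1 library. ZYX, zyxin, and TLN1, talin 1, both of focal adhesions, had -0.44 ± 0.13 and -0.22 ± 0.089.

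**Figure D5:**
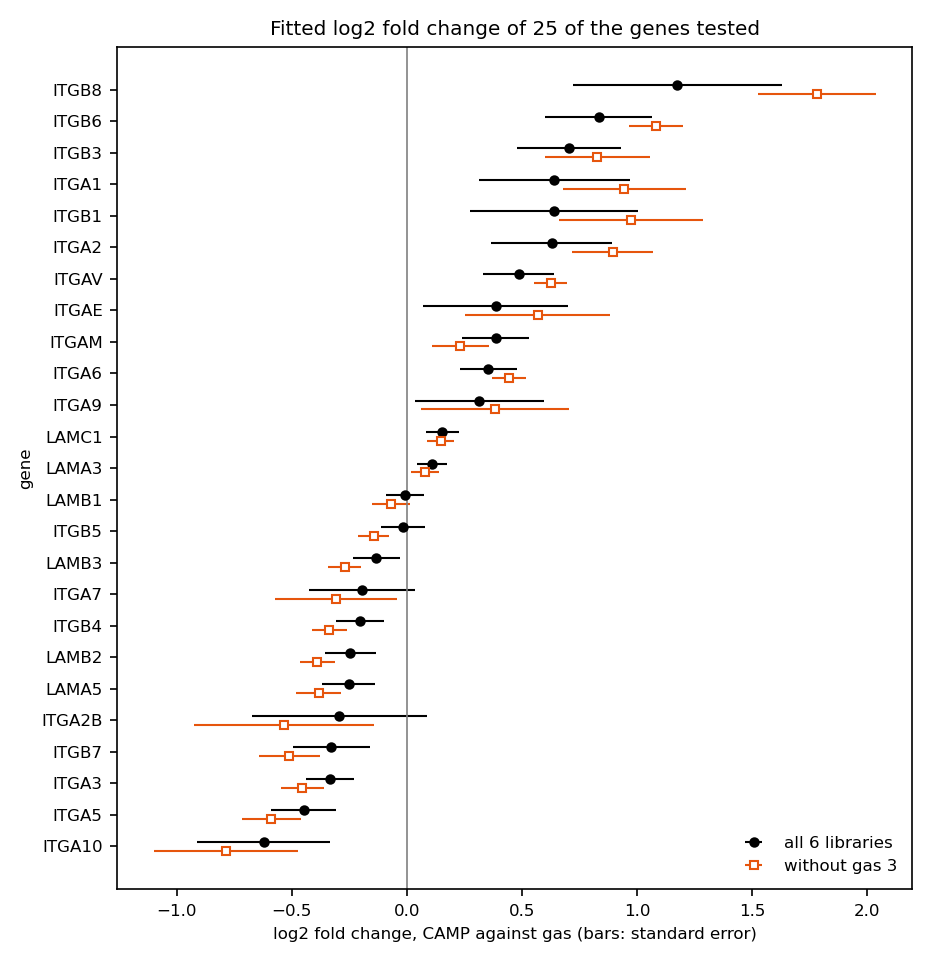
Log2 fold change of CAMP against gas for 25 of the genes tested, sorted by the fit of all libraries (filled circles), with the fit without gas 3 (open squares). Bars are standard errors, and ITGB8 lies at the top at 1.17 with all libraries and 1.78 without gas 3.

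The members are long genes. The median length of their main transcripts was 5334.5 bases over the 26 tested. By the length implied by each gene's counts and FPKM, a measure that all genes tested have, 86.3% of them were shorter than the median member. With a trend on length removed from each library, the median of the members was -0.13, that of all genes tested was -0.036, and that of the integrins alone 0.11. All 7 laminins then had a log2 fold change below 0. At an unadjusted p under 0.05 by edgeR, 11 members passed in this fit, 5 as higher and 6 as lower. The share of all genes that passed in it was not determined. ITGA6 and ITGAM no longer passed. ITGA2 passed in addition as higher, at 0.50, and ITGA10, ITGB4, LAMA5 and LAMB2 as lower, at -0.85, -0.45, -0.51 and -0.52. ITGB8, ITGB6, ITGAV and ITGB3 kept values above 0, at 0.99, 0.66, 0.26 and 0.51, and ITGA3 and ITGA5 were at -0.54 and -0.63. The part of transcript length in the differences between the groups was not tested.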

How the data were processed

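RNA of CPEK cells (3 gas and 3 CAMP libraries, groups and numbers from the sample labels) was sequenced with a TruSeq Stranded mRNA kit. The authors removed adapters and PCR duplicates, trimmed reads with Trimmomatic 0.38, checked them with FastQC 0.11.7, mapped them to CanFam3.1 with HISAT2 2.1.0 and quantified known transcripts with StringTie 2.1.3b. The deposited read counts are whole numbers without normalization. The deposited FPKM values had been scaled by the authors to transcript length and library depth. The 12 TPM columns were not used. The annotation release is not given in the sources used here. All 38 genes matched UU_Cfam_GSD_1.0 by gene ID and symbol, used for names only.

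Counts were fitted in R 4.3.3 with edgeR 4.0.16 (TMM factors, filterByExpr, prior count 2, quasi-likelihood test, Benjamini-Hochberg adjustment over 14708 genes). CPM values use TMM-scaled totals. Tests were checked only on simulated counts with the same spread in every library. The gas libraries here stood far apart, so that check does not show how well the tests suit these data. Alternatives were DESeq2 1.42.0, RLE factors, a minimum of 10 counts per library or none, a replicate block, limma 3.58.1 (voom with sample quality weights, or log2 of FPKM plus 1 or 0.1), a length correction (lowess of span 0.3 on log length per library) and leaving out each library. Chain ratios without each library were added after seeing the data. Counting error limits the precision little at these totals, except for genes with few counts.

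Members, role lists, partner lists, markers and tests were chosen with earlier results of these data known. Of the 26 members that passed the filter, 25 are named, and the values of the other are not reported here. Of the partner lists, the 2 largest differences each way with an unadjusted p under 0.05 are named. DST, VTN and genes at 0 were named after their values were seen.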

Additional observations from a re-analysis of the deposited data

How the results depend on the processing

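Over the 26 members and 16 alternatives, 408 of 416 log2 fold changes kept their direction, and 21 members kept it under all 16. The exceptions were LAMB1 (0.045) and ITGA7 (0.011) with voom, LAMC1 (-0.103, and -0.098 with the replicate block) and LAMA3 (-0.152, and -0.143 with the block) with the length correction, and ITGB5 (-0.145 to 0.016) and LAMB1 (-0.070 to 0.013) over the fits that left out 1 library. The count at an adjusted p under 0.05 was 19 with voom and 0 to 14 without 1 library. The count at an unadjusted p under 0.05 was 19 with voom and 3 to 17 without 1 library. The 2-fold count was 0 on the log2 of FPKM plus 1, 0 with the length correction and 0 to 2 without 1 library; it was 0 without gas 1, gas 2, CAMP 2 or CAMP 3 and 2 without gas 3. Without CAMP 1 it was 1, which was LAMA4 (lower, and below the filter when all 6 libraries were kept), while ITGB8 had an unadjusted p of 0.0771 by edgeR. The median of the members was 0.14 with DESeq2 and 0.102 without a filter, both over 33 members in place of 26. It was 0.099 with voom, -0.127 with the length correction, -0.121 with that and the block, and -0.044 to 0.016 without 1 library. The cause was not tested. With the replicate block alone, 0 members passed at an adjusted p and 8 at an unadjusted p under 0.05, with a median of 0.051. The deviations of libraries from their group means had correlations of 0.13, 0.024 and 0.048 between gas and CAMP libraries of the same number. Between those of different number they ran from -0.139 to 0.087. With 3 libraries in a group, such values can neither show nor exclude a pairing. The labels do not say that the number pairs cultures, so it was a block only in an alternative.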
